A study of Arabidopsis thaliana with 6 samples.

Results

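NAC014 (locus AT1G33060) was the 1 gene of the NAC family that could be followed by name in p53-transgenic Arabidopsis seedlings. Members were chosen as the probe sets whose annotation names 1 gene with a symbol that starts with NAC or ANAC and a number. This rule found 1 of the 13513 probe sets that name 1 gene, out of 22746 probe sets in all. The reference annotation lists 105 genes under a NAC name, and a search by locus and by older symbol also led to NAC014 and to no further probe set. None of the 503 probe sets that name several genes lists a NAC gene. A further 8730 probe sets carry no gene name in the annotation used, so other NAC genes may be on the array without a name here. The regulators of senescence and stress in this family, such as ORE1, NAP, ATAF1 and RD26, were therefore not analysed here, and neither was SOG1, the NAC protein of the DNA damage response. Of 60 NAC genes listed by role (9 for senescence, 22 for stress, 3 for DNA damage and the rest mostly for development), none had a probe set named for it alone. The values below describe NAC014 and do not stand for the family.

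NAC proteins are transcription factors found only in plants. They bind DNA through a conserved domain near the amino terminus, named after the genes NAM, ATAF and CUC, while the rest of the protein varies and activates or represses transcription. Some members drive the ageing of leaves, some respond to drought, salt or wounding, and others shape organ boundaries, the root cap and the walls of xylem cells. The annotation used here gives NAC014 no role beyond its family name.

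RNA came from seedlings 10 days old of ecotype Col-0, either wild type (WT) or transgenic for human p53 (35S:P53). The transgene is driven by 35S, a constitutive viral promoter, so it is not limited to a tissue or a stage, and the sources used here do not say which transgenic line was hybridized. For each genotype there were 3 arrays, numbered 1 to 3, and the labels describe the replicates as independent biological experiments. The ATH1 array reads a transcript with several short oligonucleotides, together called a probe set. Each deposited value is a log, taken as log2, and was centred so that the 6 arrays of a probe set have a median of 0. With absolute levels lost in this way, neither the abundance of NAC014 nor the seedling identity of the samples could be checked. The array medians lay between -0.02 and 0.01, but centring each probe set itself draws them toward 0. The SD over all probe sets ran from 0.262 to 0.310 on the WT arrays. On the p53 arrays it ran from 0.317 to 0.455, and it was highest in p53 replicate 3. In whole seedlings, a change in the share of cells that hold a transcript and a change in its amount per cell cannot be told apart.

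NAC014 was slightly lower on every p53 array than on every WT array, but the difference did not pass the test. In WT the centred log2 values were 0.10, 0.13 and 0.01 in replicates 1, 2 and 3. In p53-transgenic seedlings they were -0.05, -0.01 and -0.08. The genotypes did not overlap, and the closest arrays, WT replicate 3 and p53 replicate 2, were only 0.012 apart on the log2 scale. A lack of overlap was common on this array, since 34.3% of all probe sets showed it in either direction and 19.4% with p53 lower. The means were 0.080 ± 0.066 (SD, n = 3) in WT and -0.046 ± 0.036 (SD, n = 3) in p53-transgenic seedlings.

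**Figure D1:**
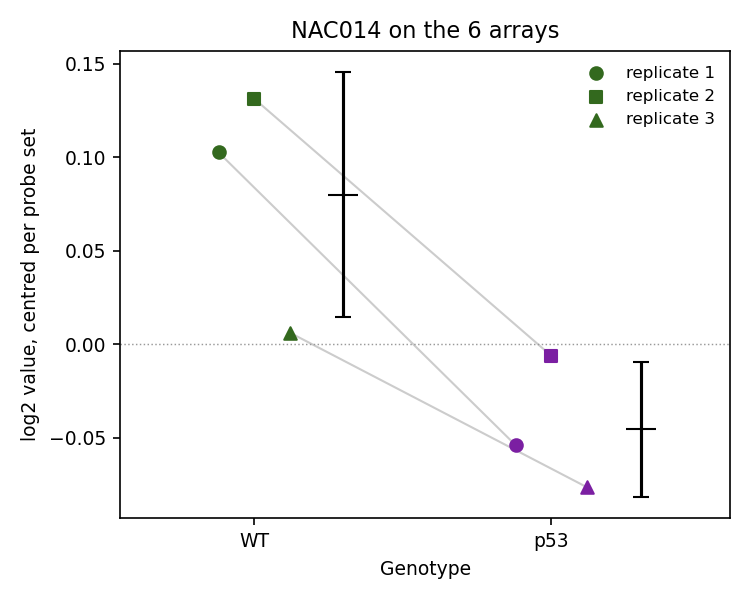
Centred log2 value of NAC014 (vertical axis) on each array by genotype, with marker shapes for replicates 1 to 3, grey lines joining arrays of the same number, and black bars for the mean and SD of 3 arrays. All p53 arrays lie below all WT arrays, with a gap of 0.012 between WT replicate 3 and p53 replicate 2.

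The log2 fold change of NAC014, p53 over WT, was -0.13 (standard error 0.079, 95% confidence interval -0.31 to 0.06). The adjusted p from limma over all 22746 probe sets was 0.360, and the unadjusted p was 0.156. In the same fit 15.4% of all probe sets had an adjusted p under 0.05, 8.84% lower and 6.55% higher in p53-transgenic seedlings. On a linear scale NAC014 stood at 91.7% of WT, with an interval from 0.805 to 1.04 times WT. In this fit the interval leaves out a fall to under 0.805 of the WT value and a rise beyond 1.04 times, if the log is to base 2. These bounds did not hold in all of the other fits described below. The log2 interval was -0.33 to 0.08 when the fit was blocked by replicate. It was -0.39 to 0.06 without WT replicate 3 and -0.33 to 0.13 without WT replicate 2. The methods' t-test, as the t test named in a figure legend of the study is called here, gave a narrower interval, -0.25 to -0.01. The exact two-sided permutation test of 3 against 3 arrays, which ignores the replicate numbers, gave p = 0.1. This is the smallest value that its 20 splits allow. Every probe set without overlap gets it (34.3% of all), so it adds nothing to the lack of overlap.

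NAC014 was among the probe sets whose values varied little on these arrays. With absolute levels lost, whether its signal stood above background could not be checked. Its SD within a genotype, pooled over both, was 0.053 on the log2 scale, against a median of 0.141 over all probe sets, and 5.35% of probe sets had a smaller one. Its range over the 6 arrays was 0.21, and 90.0% of probe sets had a larger range. The size of its log2 fold change was also modest, as 43.1% of probe sets had a smaller one and the median size was 0.16. Taken by replicate number, p53 minus WT was -0.16, -0.14 and -0.08 for replicates 1, 2 and 3. The shared direction follows from the lack of overlap, whichever arrays are paired, and adds nothing to it. With the replicate number as a block, the adjusted p was 0.371.

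The test chosen moved the p-value of NAC014 more than the scaling did. The methods' t-test, named in a figure legend of the study beside its thresholds, takes the spread from this probe set alone. The legend does not say how variances were treated, and equal variances were assumed here. In the methods' t-test the standard error was 0.043 and the p-value 0.0436, or 0.185 after Benjamini-Hochberg adjustment, against 0.360 from limma. limma draws the spread of each probe set toward that of the others, which for a probe set as steady as NAC014 gives the larger standard error of 0.079. NAC014 did not reach the thresholds that the study states, an unadjusted p under 0.05 together with a fold change over 2, which 5.88% of probe sets passed with limma.

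**Figure D2:**
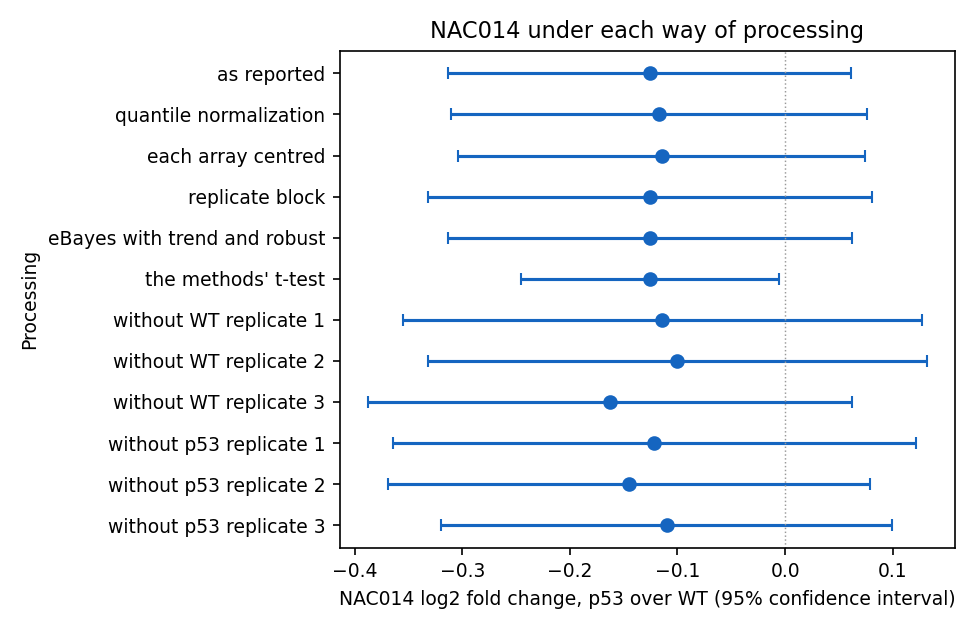
Log2 fold change of NAC014, p53 over WT (horizontal axis), with its 95% confidence interval, for the fit as reported and 11 other ways of processing or single arrays left out (vertical axis). Every estimate is below 0, from -0.16 to -0.10, and none had an adjusted p under 0.05. Except under quantile normalization and centring of each array, the lack of overlap fixed the sign in advance.

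A list of 53 genes of leaf senescence, of its regulators and of targets known for other NAC proteins gave the setting, and 11 of them had a probe set named for them alone. In p53-transgenic seedlings 1 of these 11 was higher, none was lower and 10 did not pass, where 6.55% of all probe sets were higher and 8.84% lower at the same threshold. At an unadjusted p under 0.05 from limma 1 was higher and 2 were lower. Of all probe sets 29.2% reached this in either direction, and 16.4% while lower. In the methods' t-test the unadjusted p was under 0.05 for WRKY6 (0.00466, higher) and NOL (0.0416, lower), and for no other of the 11. After adjustment the methods' t-test called none of the 11, and 1411 probe sets on the whole array. The median log2 fold change of the 11 was 0.00, against -0.01 over all probe sets. In 3 of the 11 the genotypes did not overlap (27.3%, with 34.3% of all probe sets as the background). The size of the NAC014 difference lay well inside the range of these genes, from -0.90 to 1.39.

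**Figure D3:**
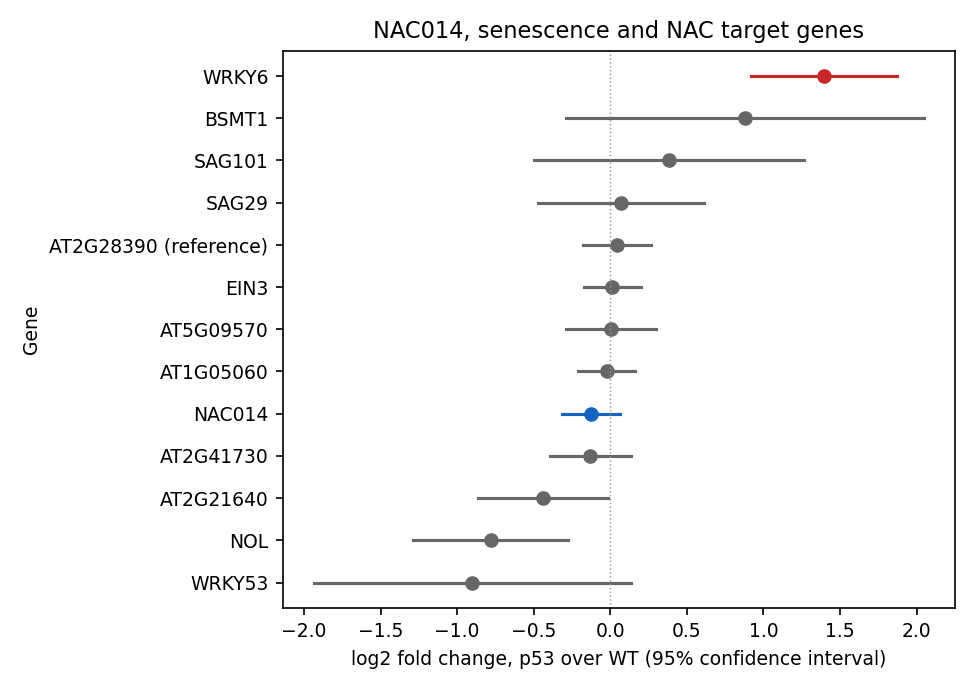
Log2 fold change, p53 over WT (horizontal axis), with 95% confidence interval, for NAC014 (blue), the 11 listed genes and the reference gene AT2G28390, ordered by value (vertical axis). WRKY6 (red) is the gene with an adjusted p under 0.05 and stands at 1.39, while NAC014 stands at -0.13 with an interval that spans 0.

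Among transcription factors of senescence, WRKY6 rose and WRKY53 varied between the p53 arrays. WRKY6, a regulator of senescence and of phosphate responses, had values of -0.70, -0.59 and -0.45 in WT and of 0.76, 0.45 and 1.25 in p53-transgenic seedlings. The genotypes were clearly apart, and its log2 fold change was 1.39 (standard error 0.20, adjusted p = 0.0054 from limma). Over the alternatives its adjusted p lay between 0.00108 and 0.0611, and the highest came from the methods' t-test. The study states no adjustment. The p-value of WRKY6 before adjustment was 0.00466 in the methods' t-test, against 0.000233 from limma, so WRKY6 met the study's thresholds on p and fold change. WRKY53, which promotes leaf senescence, had values of 0.18, -0.18 and 0.28 in WT and of -1.09, -1.58 and 0.25 in p53-transgenic seedlings. Replicate 3 of p53 lay within the WT values while the other p53 arrays lay below them, and the log2 fold change of -0.90 had an adjusted p of 0.232. Without p53 replicate 3 it was -1.43 (adjusted p = 0.00533 from limma, range 0.00533 to 0.470), and without p53 replicate 2 it was -0.51 (adjusted p = 0.420). For EIN3, the ethylene transcription factor that acts upstream of senescence NAC genes, the log2 fold change was 0.01 (95% confidence interval -0.17 to 0.20, adjusted p = 0.942 from limma).

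NOL, a chlorophyll b reductase that acts in chlorophyll breakdown, lay close to the threshold. Its values were 0.14, 0.36 and 0.09 in WT and -0.79, -0.09 and -0.88 in p53-transgenic seedlings, with p53 replicate 2 nearest to WT. The genotypes did not overlap, and the log2 fold change was -0.78 (standard error 0.21, adjusted p = 0.0530 from limma). With the replicate number as a block the adjusted p was 0.0194, and without p53 replicate 2 the log2 fold change was -1.03 (adjusted p = 0.00238, range over all alternatives 0.00238 to 0.180). For SAG29, a sugar transporter of the SWEET family that accumulates in senescing leaves, the log2 fold change was 0.07 (adjusted p = 0.893 from limma), and for SAG101, a lipase-like protein of defence and senescence, it was 0.38 (adjusted p = 0.574). The SAG101 value was -0.00026 without p53 replicate 3 and 0.81 without p53 replicate 2, where it passed (adjusted p = 0.0363 from limma, range 0.0363 to 0.9997).

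**Figure D4:**
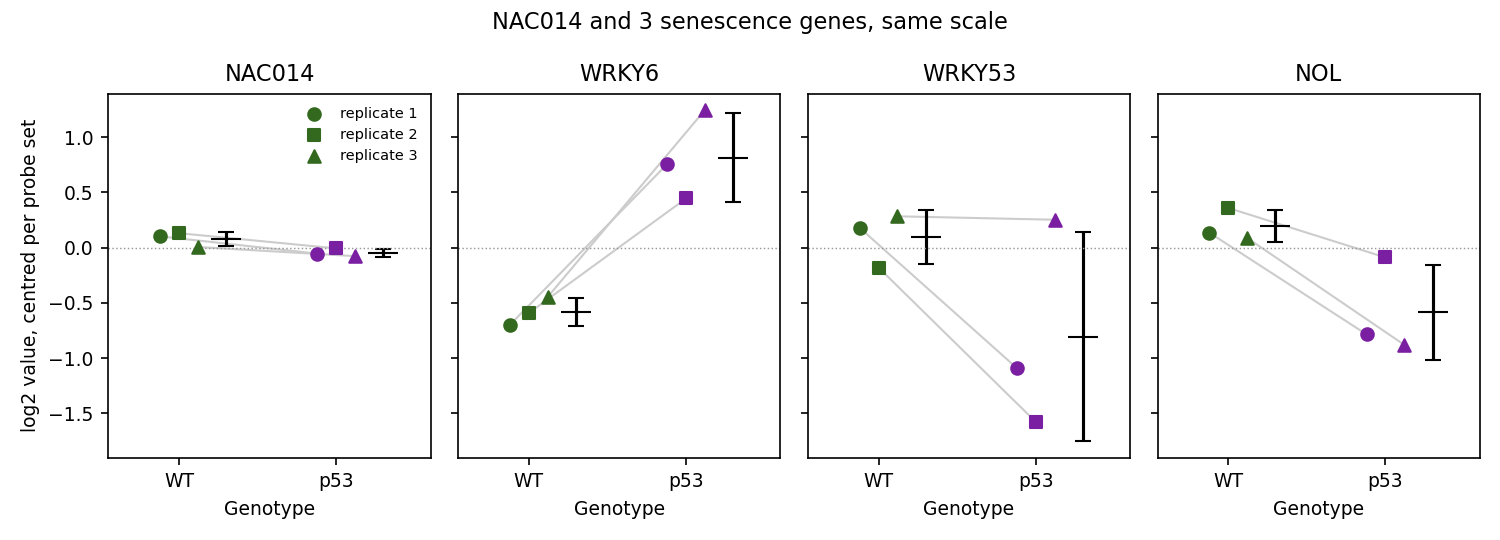
Centred log2 values (vertical axis, shared) of NAC014, WRKY6, WRKY53 and NOL on each array by genotype, with marker shapes for replicates 1 to 3, grey lines joining arrays of the same number, and black bars for the mean and SD of 3 arrays. NAC014 spans 0.21 over the 6 arrays, against 1.94 for WRKY6, 1.86 for WRKY53 and 1.24 for NOL.

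Genes known as targets of other NAC proteins did not pass the test either. BSMT1, a methyltransferase that makes methyl salicylate and is controlled by stress NAC proteins, had values of 0.26, -0.31 and -0.52 in WT and of 0.53, -0.26 and 1.79 in p53-transgenic seedlings. The genotypes overlapped, with p53 replicate 3 far above the other arrays, and the log2 fold change was 0.88 (standard error 0.49, adjusted p = 0.301 from limma). It was 0.33 without p53 replicate 3 and 1.35 without p53 replicate 2 (adjusted p = 0.527 and 0.0575 from limma, range over all alternatives 0.0575 to 0.567). AT2G21640, AT2G41730, AT5G09570 and AT1G05060 belong to the genes that NAC proteins bound to the endoplasmic reticulum switch on when mitochondria are impaired. Their log2 fold changes were -0.44, -0.13, 0.00 and -0.02, with adjusted p-values from limma of 0.158, 0.519, 0.987 and 0.895. For AT2G21640 the genotypes did not overlap, as for 34.3% of all probe sets, and the 95% confidence interval was -0.87 to -0.02. Its unadjusted p was 0.0441 from limma and 0.110 in the methods' t-test. The adjusted p of AT2G21640 was 0.0317 without p53 replicate 2, the lowest among its alternatives, and reached 0.331 without another array. For AT2G28390, often used as a reference gene because its level is steady, the log2 fold change was 0.04 (95% confidence interval -0.18 to 0.27). That interval and the one of NAC014 overlap, and their difference was not tested.

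The genes near NAC014 on chromosome 1 did not share a direction. Among the 3 nearest genes on either side that a probe set names alone, chosen by position after the fit, log2 fold changes ran from -0.25 to 1.21. AT1G33110, which lies 7 genes away, was higher, by 1.21 (standard error 0.24, adjusted p = 0.0193 from limma). The other 5 did not pass, with 15.4% of all probe sets called in either direction. In 5 of the 6 the genotypes did not overlap, against 34.3% of all probe sets. That call was lost when any of WT replicates 2 and 3 and p53 replicate 1 was left out (adjusted p up to 0.0766 from limma), and in the methods' t-test (0.112, range over all alternatives 0.00579 to 0.112). AT1G33055 and AT1G33070, directly on either side of NAC014, had log2 fold changes of 0.18 and -0.16, with adjusted p-values from limma of 0.169 and 0.227. AT1G33030 had one of 0.64 (adjusted p = 0.0825), with 0.0188 when the replicate number was a block and 0.0094 without p53 replicate 2 (range 0.0094 to 0.232).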

How the data were processed

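RNA of 6 samples was amplified, labelled with biotin and measured on Affymetrix ATH1 arrays. The GEO labels name TRIzol for the extraction and the methods name an RNeasy kit, and this was not resolved. PLIER is named in the submitters' processing notes, and GeneSpring in the methods for statistics. The values deposited by the authors were taken as log2 expression, centred so that every probe set has a median of 0. How these values were corrected for background and normalized, and which base the log has, is not stated in the sources used here. The study's quality summary lists background and a scaling target for each array without tying them to these values, and reports a threshold test outside bounds for all 6 arrays. After centring, no signal over background of a probe set could be computed. The number of arrays limits the precision.

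Of 22810 probe sets 64 controls were left out, and of the rest 13513 carry the name of 1 gene, 503 of several genes and 8730 of none. Names come from GEO's platform annotation, matched to the TAIR10.1 reference by gene number. Each probe set was fitted with limma 3.58.1 in R 4.3.3 through lmFit and eBayes, with genotype as the sole term and Benjamini-Hochberg adjustment over 22746 probe sets. The fit was tested on simulated data with 3 arrays per genotype. It recovered 29 of 80 changes of 1.5-fold, 41 of 60 of 2-fold and 57 of 60 of 4-fold, with 6 false calls. A gene that did not pass may therefore still have changed. How large a change could be missed depends on the spread of the gene. The log2 standard error was 0.079 for NAC014 and 0.49 for BSMT1, so the recovered shares do not carry over to each gene. The member rule and gene lists were chosen with earlier results of these data known. Named are NAC014, listed genes with an adjusted p under 0.05 and the others of the list, and the neighbours of NAC014.

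The labels give both genotypes the same replicate numbers. After subtraction of each genotype's mean, the WT and p53 arrays of replicates 1, 2 and 3 correlated at 0.12, 0.27 and 0.34 across probe sets. All are over 0.1, which is taken here as a sign of pairing. Between arrays of different numbers the correlation ran from -0.28 to 0.03. The subtraction makes the 3 arrays of a genotype sum to 0, which ties these values to the former. The values reported are from the fit without a block, because the study's methods state no covariate. The replicate number entered as a block in an alternative fit, so the calls reported do not take this pairing into account. Other alternatives were quantile normalization, centring of each array, eBayes with trend and robust, the methods' t-test, a filter on the SD over the arrays, the thresholds of the study, and each array left out.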

Additional observations from a re-analysis of the deposited data

How the results depend on the processing

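NAC014 kept its direction under all 11 alternatives that gave it a value (log2 fold change from -0.16 to -0.10) and passed under none (adjusted p from 0.185 to 0.594). Most of these could not change the sign. Without overlap of the genotypes, leaving out 1 array cannot reverse it. The block, the trend and robust fit and the methods' t-test keep the estimate of -0.13. Only quantile normalization (-0.12) and centring of each array (-0.11) could have moved the direction. The filter on the SD over the arrays removed NAC014 and so gave no value. Of the listed senescence and NAC target genes, 1 was called higher, against 0 with the methods' t-test after adjustment, 1 at the thresholds of the study and 1 to 2 with an array left out. None was called lower, against 1 with quantile normalization, 1 with the replicate number as a block, 1 after the SD filter and 0 to 2 with an array left out. The block changed the call of NOL (log2 fold change -0.78, adjusted p = 0.0194) and of AT1G33030, and of no other gene named here. NOL also passed with quantile normalization (adjusted p = 0.0496) and after the SD filter (0.0324), which tests fewer probe sets. The sign changed with an array left out for 6 genes that did not pass, with values from -0.051 to 0.0094 for AT1G05060, -0.017 to 0.045 for EIN3, -0.081 to 0.116 for AT5G09570, -0.21 to 0.25 for SAG29, -0.00026 to 0.81 for SAG101 and -0.022 to 0.091 for AT2G28390. SAG101 passed without p53 replicate 2 (adjusted p = 0.0363). Across the array 3500 probe sets were called, against 1411 with the methods' t-test, 1337 at the thresholds of the study and 1621 to 4346 with an array left out, the lowest without WT replicate 3. The cause of these shifts was not tested.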
